A study of Drosophila melanogaster with 4 samples.

Results

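The 10 genes described here, osk, nos, bcd, grk, vas, orb, exu, swa, pum and tud, are maternal genes of Drosophila melanogaster that pattern the egg or build its germ plasm. They were chosen by name, from a list of germline genes, and were found through the gene annotation of the array using current symbols. All 10 were on the array, with 13 probe sets, out of 10843 genes with a probe set of their own. nos is listed there as nanos, and the probe set of Nos, the gene for nitric oxide synthase, was not taken for it.

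Whole females of an inbred Canton S wild-type stock were measured on an Affymetrix Drosophila GeneChip. They were reared at 25 °C, were aged 3 to 4 days and, if mated, were frozen 1 to 3 h after the mating. One group was mated to wild-type Canton S males, which pass sperm and accessory gland proteins (Acps). Another was mated to spermless males, the sons of Canton S males and bw sp tud1 mothers, which pass Acps without sperm. A further group was mated to DTA-E males, a transgenic stock on a Canton S background without sperm and without Acps from the main cells, which are 96% of the secretory cells of the accessory gland. The remaining group was of virgin females. In each group 50 flies were divided into 2 RNA extractions for 4 chips, but the values come as 1 column per group. There is therefore no replicate value, no test and no p-value, and each difference below is between 2 columns. The tud mutation was carried by the mothers of the spermless males, so the tud mRNA measured here is that of wild-type females.

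In the ovary, nurse cells connected to the oocyte make most maternal mRNA and proteins and pass them on. osk mRNA is carried to the posterior pole of the oocyte, where Oskar protein recruits Vasa and Tudor into germ plasm and nos mRNA is translated. bcd mRNA is held at the anterior pole with the help of Exuperantia and Swallow, and grk mRNA near the oocyte nucleus gives the signal that sets the back of the egg. Because most of these genes are active mainly in germ cells of the ovary, their values in whole-body RNA can be read as a gauge of its germline share. pum, which also acts in the nervous system, is a less direct part of this gauge. In whole flies, fewer germ cells and less RNA per germ cell cannot be told apart.

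The values were deposited as logarithms of unstated base. Read as log2, 1 unit of difference is 2-fold (2.72-fold if the base were e). Levels of different probe sets are not compared. Differences were taken between columns centred at their medians over the 6201 genes kept by a filter on dim probe sets. Centring took away 0.44 after wild-type males, 0.42 after spermless males, 0.47 after DTA-E males and 0.47 in virgin females. All 10 genes were kept, through 11 of their probe sets. For scale, the SD of a difference between probe sets of the same gene was 0.079 to 0.093, and 1.2-fold is 0.26. This SD holds disagreement between probe sets in the same columns, not a shift of a chip or RNA extraction that they share. The spread between pools of flies is not in it either. The SD over all genes was 0.12 to 0.16, and the share of genes beyond the SD between probe sets was not counted.

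Markers of egg-making ovaries were present, since all 16 eggshell genes on the array were kept, with the vitelline membrane gene Vm34Ca between 5.16 and 5.37 in the 4 columns. For the actin control, whose 3' probe set is set against its 5' one as a sign of RNA integrity, the difference was 1.97 after wild-type males, 2.02 after spermless males, 2.26 after DTA-E males and 1.95 in virgin females. The mean of 9 hybridization controls was 1.5 after wild-type males, 1.41 after spermless males, 1.29 after DTA-E males and 1.37 in virgin females. The part of either measure in the results below was not tested.

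The posterior genes osk and nos had their highest values in females mated to wild-type males. osk, which organises germ plasm, had a value of 3.04 after wild-type males, 2.78 after spermless males, 2.86 after DTA-E males and 2.82 in virgin females. After centring, osk differed by 0.24 between wild-type-mated and virgin females, by 0.20 between wild-type-mated and DTA-E-mated females and by 0.23 between wild-type-mated and spermless-mated females. The other 3 columns lay close together, with gaps within the SD between probe sets, so the wild-type column alone stood apart.

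nos encodes a translational repressor that allows the abdomen to form and is needed in germ cells. Its first probe set had a value of 1.93 after wild-type males, 1.65 after spermless males, 1.72 after DTA-E males and 1.88 in virgin females. The second had a value of 2.90 after wild-type males, 2.68 after spermless males, 2.81 after DTA-E males and 2.81 in virgin females. In both, the wild-type column was highest and the spermless column lowest. The 2 probe sets disagreed on DTA-E against virgin females, where the deposited values differed by -0.16 in the first and by 0.0029 in the second. Averaged and centred, nos differed by 0.23 between wild-type-mated and spermless-mated females, by 0.18 between wild-type-mated and DTA-E-mated females and by 0.10 between wild-type-mated and virgin females.

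pum encodes the RNA-binding partner of Nanos in repressing hunchback mRNA and also acts in the nervous system. It had a value of 1.2 after wild-type males, 0.94 after spermless males, 1.21 after DTA-E males and 1.22 in virgin females. The spermless column alone was low, by -0.22 against virgin females and by -0.22 against DTA-E-mated females, which is 0.858-fold and 0.860-fold. Wild-type-mated, DTA-E-mated and virgin females differed from each other by at most 0.0069. pum was the lowest member in both of these comparisons, with 2.19% of all genes lower against virgin females and 1.84% lower against DTA-E-mated females.

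The other germ plasm components, vas and tud, were also lowest after spermless males, by unequal amounts. vas, a DEAD-box RNA helicase gene of germ cells, had a value of 1.33 after wild-type males, 1.17 after spermless males, 1.37 after DTA-E males and 1.39 in virgin females. It differed by -0.16 between spermless-mated and virgin females and by 0.13 between wild-type-mated and spermless-mated females. tud, a scaffold gene of germ plasm, had a value of 0.55 after wild-type males, 0.48 after spermless males, 0.58 after DTA-E males and 0.59 in virgin females. Its range after centring was 0.064, the smallest of the 10, and none of its 6 differences exceeded the SD between probe sets.

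**Figure D1:**
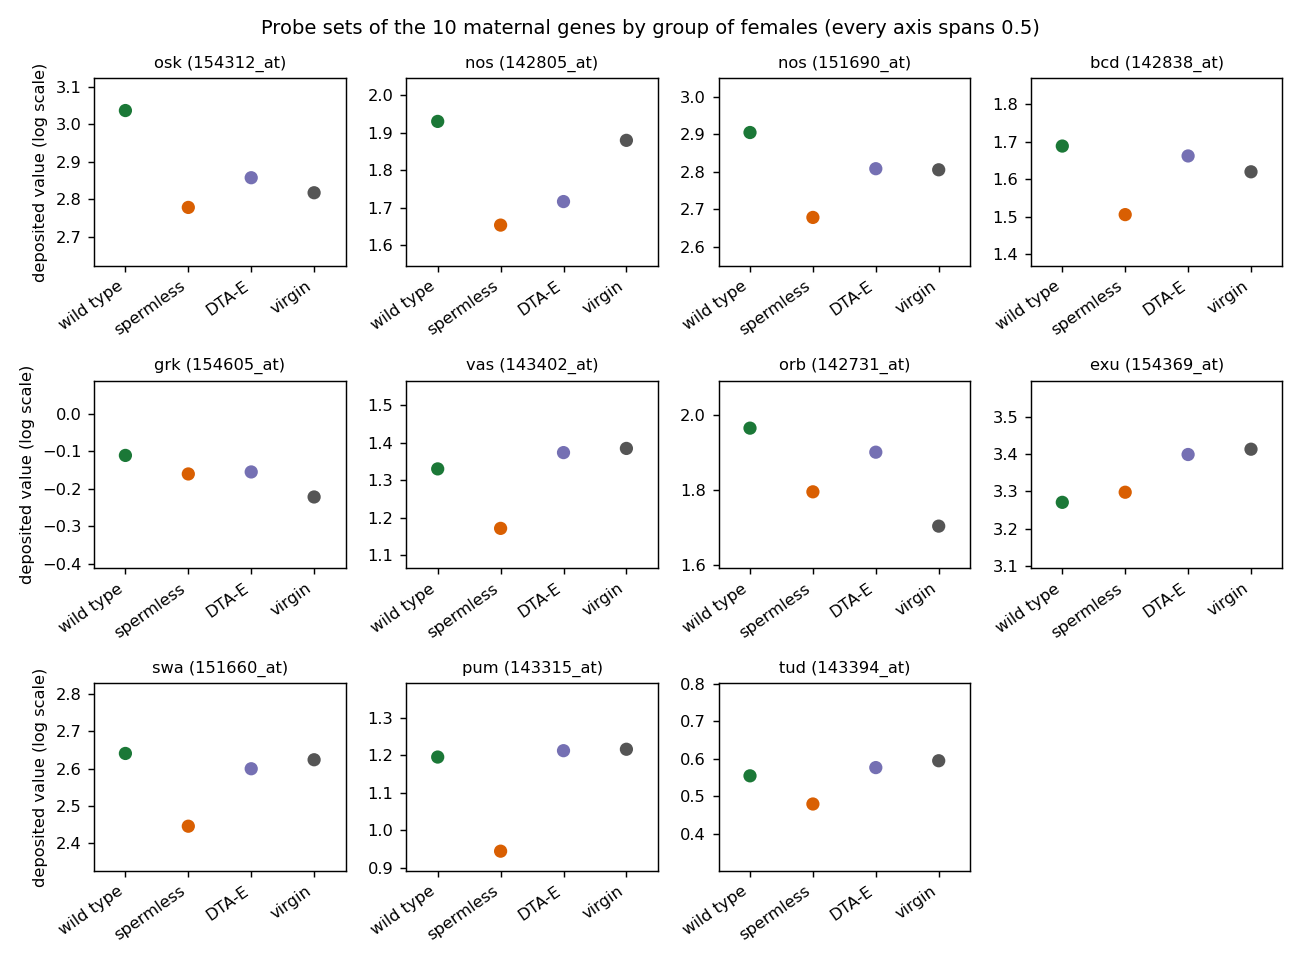
Deposited values (log scale) of the 11 probe sets kept for the 10 maternal genes, by group of females: mated to wild-type, spermless or DTA-E males, or virgin. Each point is the 1 column of a group, and every vertical axis spans 0.5. The spermless column is lowest for osk, both nos probe sets, bcd, vas, swa, pum and tud, while grk and orb are lowest in virgin females and exu after wild-type males.

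Of the anterior genes, bcd and swa were also lowest after spermless males and exu was not. bcd, the gene for the homeodomain protein that patterns head and thorax, had a value of 1.69 after wild-type males, 1.51 after spermless males, 1.66 after DTA-E males and 1.62 in virgin females. The difference between wild-type-mated and spermless-mated females was 0.16. swa, needed to hold bcd mRNA at the anterior pole, had a value of 2.64 after wild-type males, 2.45 after spermless males, 2.60 after DTA-E males and 2.62 in virgin females. Its differences were 0.17 for wild-type-mated against spermless-mated females and -0.13 for spermless-mated against virgin females. The second swa probe set was too dim to be kept, with -0.30 after wild-type males, -0.30 after spermless males, -0.33 after DTA-E males and -0.30 in virgin females.

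exu, which acts in the nurse cells to load bcd mRNA into localising particles, had a value of 3.27 after wild-type males, 3.30 after spermless males, 3.40 after DTA-E males and 3.41 in virgin females. It was the only member with its lowest value after wild-type males, at -0.12 against virgin females. Its difference between wild-type-mated and spermless-mated females was -0.053, and 0.13 after quantile normalization.

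orb and grk were lowest in virgin females. orb, the gene for a CPEB protein that activates translation of osk and other localised mRNAs, had a value of 1.97 after wild-type males, 1.8 after spermless males, 1.90 after DTA-E males and 1.70 in virgin females. All 3 mated columns were above the virgin column, by 0.29 after wild-type males, 0.14 after spermless males and 0.20 after DTA-E males. The difference after wild-type males, 1.22-fold, was the only one of any member past 1.2-fold in any comparison. It was 0.26, just short of that threshold, in the columns as deposited, and 0.14 when the second, dim orb probe set was averaged in. That probe set had -1.09 after wild-type males, -1.13 after spermless males, -1.21 after DTA-E males and -1.12 in virgin females. These values are near the mean of 23 foreign control probe sets, -1.19 to -1.26, so this probe set says nothing on the order of the columns.

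grk, the gene for the TGF-alpha-like ligand that signals from the oocyte to the follicle cells, had a value of -0.11 after wild-type males, -0.16 after spermless males, -0.16 after DTA-E males and -0.22 in virgin females. It lay close to the filter of -0.18 and was kept only through its values in mated females. The difference was 0.14 between wild-type-mated and virgin females and 0.11 between spermless-mated and virgin females. Ranking the 4 columns within each of the 10 genes gives 30 pairs of neighbours, and 24 of these differed by no more than the SD between probe sets.

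**Figure D2:**
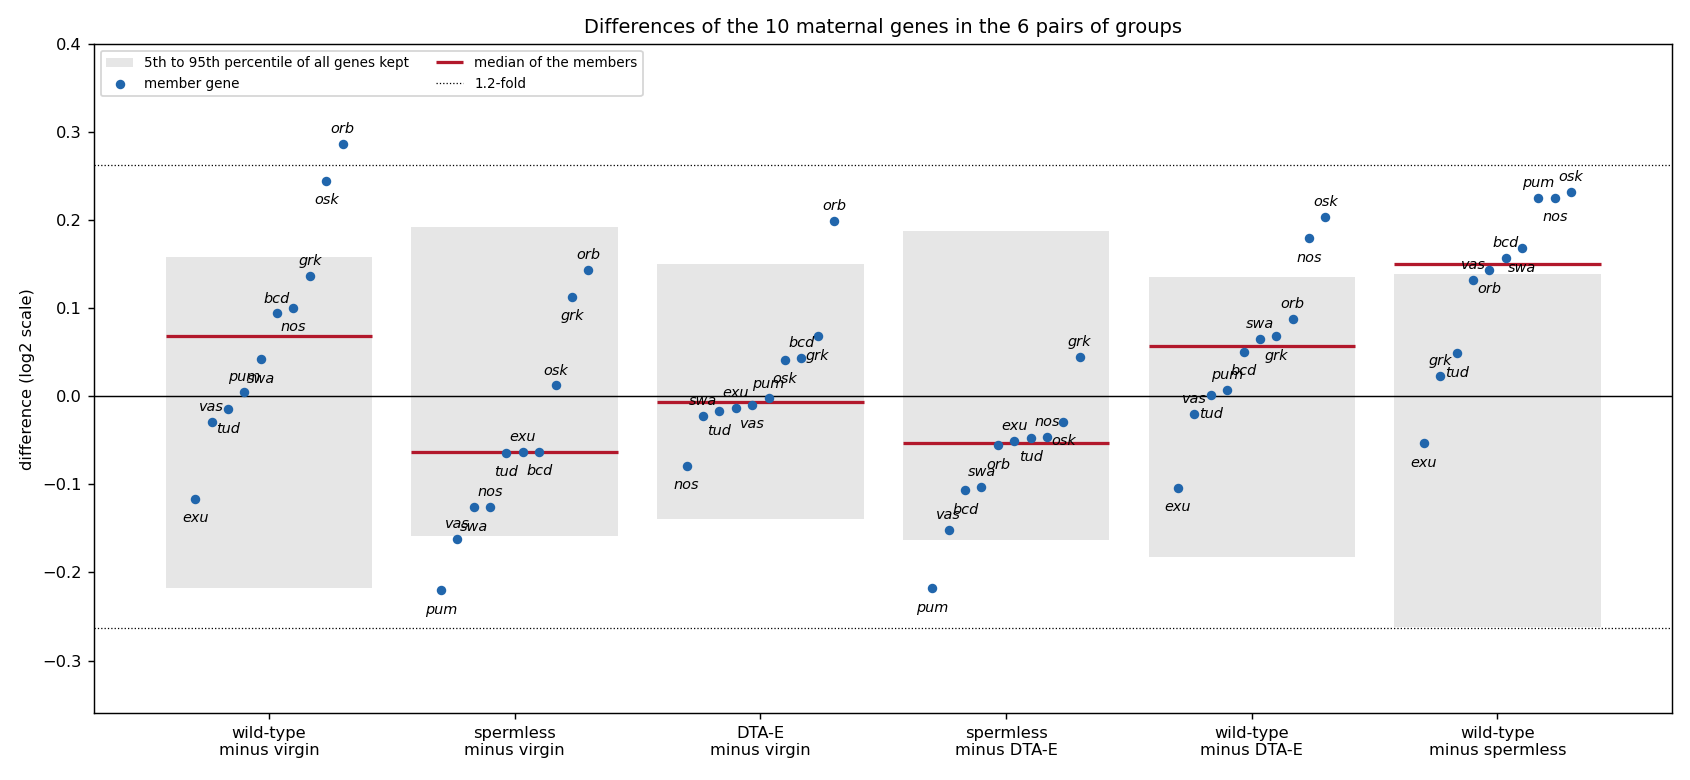
Centred differences (log2 scale) of the 10 maternal genes in the 6 pairs of groups, with the median of the members as a red bar, the range between the 5th and 95th percentile of the genes kept in grey and 1.2-fold as dotted lines. orb in wild-type-mated minus virgin females, at 0.29, is the only point past 1.2-fold, and in wild-type-mated minus spermless-mated females 9 of 10 points lie above 0.

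The effect of a complete mating on the gauge was read from wild-type-mated against virgin females. 7 of the 10 members were higher and 3 lower (vas, exu and tud), with a median of 0.068, which is 1.05-fold. Without grk, which was kept only through its mated columns, 3 of 9 were lower and the median was 0.042. Over all genes 53.6% were higher, with a median of 0.0097. orb was the 1 member past 1.2-fold, where 5.06% of all genes were, and none was past 1.5-fold, where 1.18% of all genes were. orb and osk were past 1.1-fold, as 17.2% of all genes were. The sign of pum and tud, both within 0.02 of 0, turned under another setting.

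Against virgin females, the median of the members after spermless males had the opposite sign. 7 of 10 members were lower, and osk, grk and orb were higher. osk, grk and orb were also higher, and vas, exu and tud also lower, after wild-type males. The sign thus differed for nos, bcd, swa and pum, with pum at only 0.0046 after wild-type males. The median was -0.064, or 0.957-fold, and 52.3% of all genes were higher. Without grk, 7 of 9 were lower and the median was again -0.064. 3 members (pum, vas and orb) were past 1.1-fold, where 14.9% of all genes were. No member passed 1.2-fold, as 4.23% of all genes did, although pum was at -0.27 in the columns as deposited. In those columns the median of the members was -0.12 and that of all genes -0.047.

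DTA-E-mated and virgin females differed least. 4 members were higher and 6 lower, the median was -0.0060, and the median was 0.0056 without the filter, so no direction can be given. Of all genes 54.5% were higher, with a median of 0.0080. orb, at 0.20, was the only member beyond the SD between probe sets. It was the 1 member past 1.1-fold, where 11.3% of all genes were, and no member was past 1.2-fold, against 2.82% of all genes.

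The comparisons above share the virgin column, and those below share mated columns with them, so they are not independent of each other. Spermless-mated against DTA-E-mated females differ in main-cell Acps, neither having received sperm. 9 of 10 members were lower, the exception being grk at 0.045, with a median of -0.053, while 50.9% of all genes were higher. pum (-0.22), vas (-0.15), bcd (-0.11) and swa (-0.10) were beyond the SD between probe sets. Of these pum and vas were past 1.1-fold, as 16.3% of all genes were. None was past 1.2-fold, where 3.5% of all genes were, except pum at -0.27 in the columns as deposited and at -0.28 without the filter. Brighter genes in general were lower in this comparison. Of the 2781 genes at or above the mean level of tud, which leaves out grk alone among the members, 63.9% were lower, with a median of -0.037. With a lowess trend on level removed, 7 of 10 members were lower and the median was -0.035. pum (-0.17) and vas (-0.099) then stayed beyond the SD between probe sets, 0.090 here, while bcd (-0.046) and swa (-0.055) did not.

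Wild-type-mated against DTA-E-mated females, which differ in both sperm and main-cell Acps, had 8 of 10 members higher with a median of 0.058. Of all genes 48.3% were higher, with a median of -0.0036. vas (-0.020) and exu (-0.10) were lower, and osk (0.20) and nos (0.18) were furthest above 0. These 2 were past 1.1-fold, where 13.9% of all genes were. No member was past 1.2-fold, as 2.45% of all genes were. Brighter genes as a whole went the other way, since 67.5% of the 2781 were lower, with a median of -0.041. The members' median was 0.082 with the trend on level removed, and 0.034 in the columns as deposited, where 6 of 10 were higher. After quantile normalization 10 of 10 were higher.

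By design, the presence of sperm separates wild-type-mated from spermless-mated females, and here the members differed most as a group. 9 of 10 were higher, with a median of 0.15, which is 1.11-fold, against 0.0084 over all genes, of which 54.7% were higher. osk (0.23), nos (0.23) and pum (0.23) were highest, followed by swa (0.17), bcd (0.16), orb (0.14) and vas (0.13). These 7 were beyond the SD between probe sets, and tud (0.049), grk (0.023) and exu (-0.053) were not. The SD over all genes was 0.16 here, and how many genes lay beyond the SD between probe sets was not counted. None was past 1.2-fold, against 5.47% of all genes. At 1.1-fold, a threshold chosen after the values were seen, 6 of 10 were higher and none lower, while 5.11% of all genes were higher and 15.6% were past it in either direction. The 2781 brighter genes had a median of 0.0083, so the trend on level was nearly flat here, and with it removed the members' median was 0.14 with the same count of 9 higher. The plot of difference against level shows both cases.

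**Figure D3:**
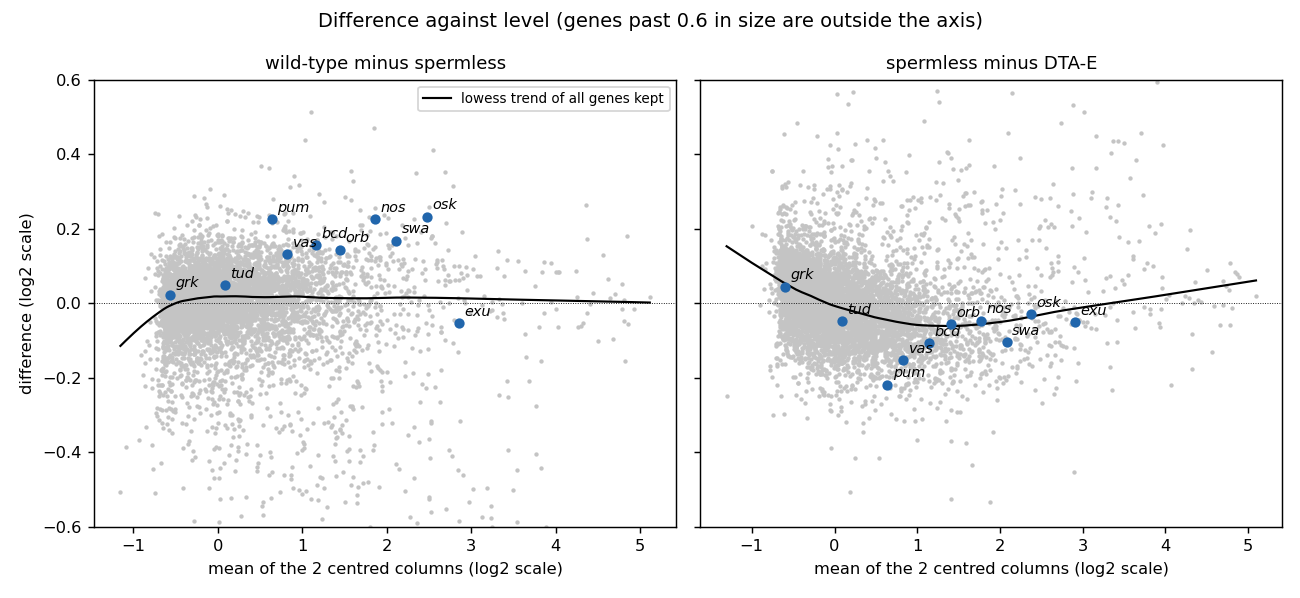
Difference (log2 scale) against the mean centred level of the 2 columns, for the genes kept (grey) and the 10 maternal genes (blue, named), with the lowess trend of all genes. In wild-type minus spermless the trend is close to 0 and 9 members lie above it, while in spermless minus DTA-E the trend is above 0 at the level of grk and dips below 0 among the brighter members.

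Across the 4 centred columns, 6 of 10 members were lowest after spermless males (nos, bcd, vas, swa, pum and tud), where 26% of all genes were. 7 of 10 were highest after wild-type males, as 29.1% of all genes were, and none was highest after spermless males. grk, among these 7, was kept only through its mated columns. The median profile of the members, each less its own mean, was 0.064 after wild-type males, -0.072 after spermless males, 0.016 after DTA-E males and 0.025 in virgin females. The genes outside the list with the closest profiles were Clic, Shark and MED15, at root mean square distances of 0.0088, 0.0091 and 0.0095 over the 4 columns. Such a small range is common, and 1477 genes lay within 0.05 of this profile.

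Other genes of the same pathways were examined next. Of the germ plasm and posterior partners, which assemble germ plasm or control osk and nos mRNA, 18 were on the array and all were kept. In wild-type-mated against spermless-mated females 13 of the 18 were higher, with a median of 0.062, where 54.7% of all genes were higher. smg, which represses unlocalised nos mRNA, differed by 0.23, and pgc, which silences transcription in primordial germ cells, by 0.20, while krimp, a Tudor-domain piRNA gene, differed by 0.028. In spermless-mated against virgin females 15 of 18 were lower, with a median of -0.057, where 47.7% of all genes were lower. In wild-type-mated against virgin females, however, 9 were higher and 9 lower, with pgc highest at 0.24. In wild-type-mated against DTA-E-mated females 13 of 18 were lower, with a median of -0.039, where 8 of the 10 members were higher. Of all genes 51.7% were lower there. Of the 2781 brighter genes 67.5% were lower, with a median of -0.041, so the partners were near genes of that level.

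The genes of oocyte fate and grk localisation, 17 of 19 kept, had 13 higher in wild-type-mated against spermless-mated females, with a median of 0.075. There 54.7% of all genes were higher. chic, the profilin gene, differed by 0.19, enc by 0.075 and glo, whose protein binds grk and nos mRNA, by -0.040. Against virgin females 15 of 17 were lower after spermless males, with a median of -0.11, where 47.7% of all genes were lower. The terminal and dorsoventral genes, 13 of 18 kept, had 9 higher in wild-type-mated against spermless-mated females, with a median of 0.078. The share over all genes was again 54.7%. Within the terminal and dorsoventral list, spz, the Toll ligand gene, differed by 0.26 and the receptor gene Tl by 0.19. The tissue of the whole females from which these values came was not tested. No gene of these 3 lists was past 1.2-fold in that comparison, and their medians stayed above 0 under each scaling tried. In wild-type-mated against DTA-E-mated females 8 of the 13 terminal and dorsoventral genes were lower, with a median of -0.027. This median was 0.00051 with the trend on level removed. Of all genes 51.7% were lower there, and of the 2781 brighter genes 67.5%, so no direction particular to this list can be given.

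ndl, a protease gene of the ovarian follicle cells that starts the Toll cascade, had -0.24 after wild-type males, -0.39 after spermless males, -0.12 after DTA-E males and -0.60 in virgin females. It was kept through its DTA-E column alone, the other 3 being below the filter of -0.18, so its differences of 0.38 after wild-type males, 0.26 after spermless males and 0.47 after DTA-E males, each against virgin females, are given as values only.

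Genes of the somatic follicle cells were mostly higher in wild-type-mated than in virgin females, with 12 eggshell genes higher and 4 lower. Their median was 0.13, and 0.11 to 0.19 over the scalings tried, where 53.6% of all genes were higher. After DTA-E males 10 were higher and 6 lower than in virgin females, with a median of 0.096, where 54.5% of all genes were higher. This median hides a split, with 6 genes past 1.1-fold higher and 6 past it lower, where 11.3% of all genes were past it. The values ran from -0.69 for Cp7Fc to 0.74 for Cp15. In the eggshell list 10 of 16 genes were higher in spermless-mated than in virgin females, with a median of 0.066, where the members had -0.064 and 52.3% of all genes were higher. This is not a firm direction, since 8 of 16 were higher with a median of 0.015 in the columns as deposited, and 9 of 16 with a median of 0.012 after quantile normalization. Cp18, a chorion gene, had 3.64 after wild-type males, 3.86 after spermless males, 3.68 after DTA-E males and 3.11 in virgin females. Cp15 differed by 0.61 between spermless-mated and virgin females and Cp7Fc by -0.34. In wild-type-mated against DTA-E-mated females 11 of 16 were higher, with a median of 0.15, where 48.3% of all genes were higher. In wild-type-mated against spermless-mated females 12 of 16 were higher, with a median of 0.076, where 54.7% of all genes were higher.

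In the yolk list 4 of 4 genes were higher in wild-type-mated than in spermless-mated females, with a median of 0.085, where 54.7% of all genes were higher. yl, the receptor through which oocytes take up yolk, had 2.66 after wild-type males, 2.53 after spermless males, 2.75 after DTA-E males and 2.94 in virgin females. It was lower in every mated column than in virgin females, which was not the order of osk, nos or orb. Yp3 differed by 0.17, Yp2 by 0.065 and Yp1 by 0.018 between wild-type-mated and spermless-mated females. Those of Yp2 and Yp1 were within the SD between probe sets, 0.090 in this comparison.

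**Figure D4:**
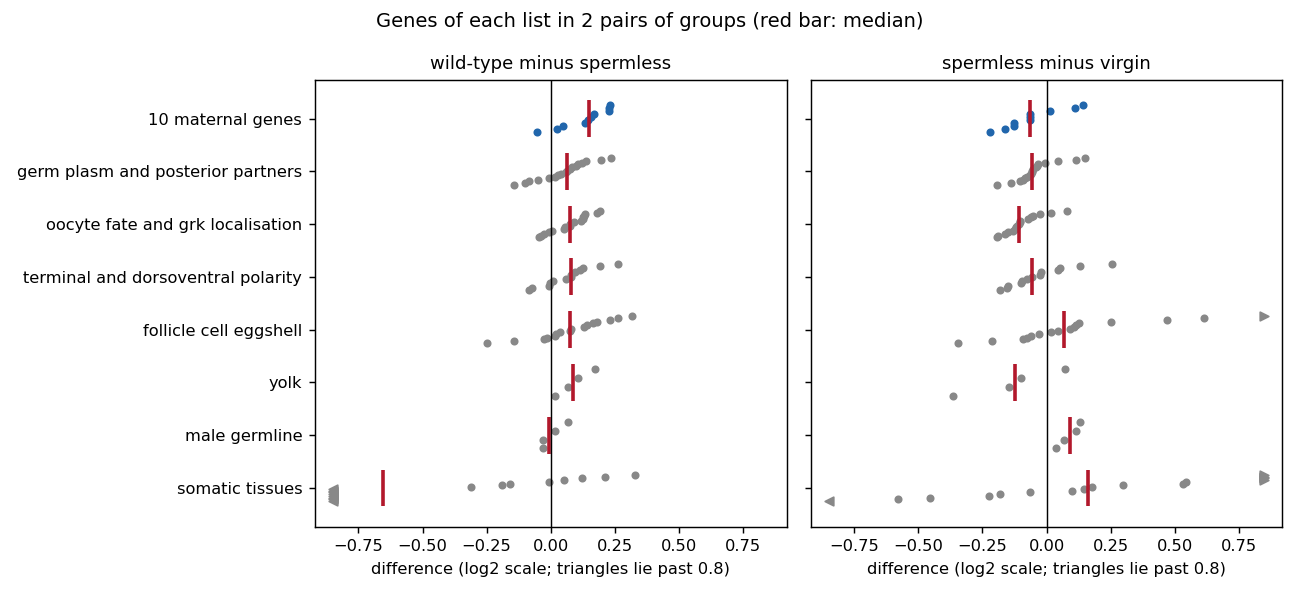
Centred differences (log2 scale) of the genes kept in each list, with the list median as a red bar, in wild-type minus spermless and in spermless minus virgin; triangles mark values past 0.8. The 10 maternal genes have medians of 0.15 and -0.064, the eggshell list 0.076 and 0.066 (0.012 in spermless minus virgin after quantile normalization), and the somatic list -0.66 and 0.16.

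Markers of other tissues differed by tissue and comparison. Of the 16 somatic markers kept, of 18 on the array, 12 were lower in wild-type-mated than in spermless-mated females, with a median of -0.66. In spermless-mated against virgin females 10 were higher, with a median of 0.16. Over all genes 45.3% were lower in the former comparison and 52.3% higher in the latter. Act88F, the flight muscle actin gene, had 0.078 after wild-type males, 3.01 after spermless males, 1.13 after DTA-E males and 1.76 in virgin females. The flight muscle gene fln had -0.77 after wild-type males, 1.60 after spermless males, 0.10 after DTA-E males and 0.58 in virgin females, and the muscle gene TpnC4 had -1.15 after wild-type males, 0.74 after spermless males, -0.32 after DTA-E males and 0.26 in virgin females. Both were below the filter after wild-type males, and TpnC4 was there near the foreign controls, so no fold is given for them. Between wild-type-mated and spermless-mated females the muscle gene Mlc2 differed by -1.40 and the maltase gene Mal-A1 by -1.03. The gut enzyme genes betaTry and Amy-d differed there by -1.05 and -1.04. Of the eye genes, Arr1 differed by -0.31, further from 0 than osk or nos, and Arr2 (-0.16) and trp (-0.19) by less. trp was kept through its spermless column alone, so its difference is given as a value only. The trypsin gene alphaTry had -1.22 between wild-type-mated and virgin females. The sperm-storage gland gene Send2 differed by 0.21 between wild-type-mated and spermless-mated females. At -0.88 in virgin females it was below the filter, and it was kept only through its mated columns. Its difference of 1.23 between wild-type-mated and virgin females is therefore given as a value only. The fat body gene apolpp was higher by 0.33 and Lsp2 by 0.12 after wild-type than after spermless males. In spermless-mated against virgin females, most gut and fat body markers were lower, as most members were, with -1.15 for Mal-A1, -0.22 for alphaTry, -0.18 for betaTry, -0.066 for Amy-d, -0.58 for Lsp2 and -0.46 for apolpp. The fat body gene Fbp1 was higher there, by 0.10. The neuronal genes elav and nSyb were too dim to be kept. The part of these tissues in the differences of the maternal genes was not tested.

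Several of the 10 genes are also active in male germ cells, which mated females could carry. Of 19 testis and spermatid markers on the array only 4, Mst84Db, Mst84Dc, Mst84Dd and Mst98Ca, were kept. Their median difference was -0.0060 in wild-type-mated against spermless-mated females, with 2 higher and 2 lower. Their median was 0.093 after wild-type males and 0.093 after spermless males, each against virgin females. The sperm gene dj was at -1.71 after wild-type males, -1.66 after spermless males, -1.72 after DTA-E males and -1.75 in virgin females. The part of male germ cells in the members' values was not tested further.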

How the data were processed

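RNA of whole females was measured on Affymetrix Drosophila GeneChips. The deposited values are 1 log2-read column per group for 14009 probe sets. The authors' image analysis, scaling and way of combining 4 chips are not given in the sources used here. Neither is the log base.

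Gene names came from the array's annotation, brought up to date through Entrez identifiers in a RefSeq table, and 12442 probe sets had 1 symbol. The 44 control probe sets and all without exactly 1 symbol were dropped. A probe set was kept when its highest column reached -0.18, the median of all values, which kept 6534. Columns were centred on their medians and probe sets of a gene averaged (294 genes had several). The arithmetic was tested on simulated data.

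The members and the 7 other lists (germ plasm and posterior partners, oocyte fate and grk localisation, terminal and dorsoventral polarity, eggshell, yolk, male germline, somatic tissues) were chosen with earlier results of these data known. Named from each were the 3 genes with the largest range, any gene past 1.5-fold and the 3 genes nearest to the members' profile. Vm34Ca, Mst98Ca, Arr1, Arr2, trp, Fbp1, dj, elav, nSyb, apolpp and Lsp2 were named after their values were seen.

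Thresholds were 1.2-fold and 1.5-fold. The alternatives tried were uncentred columns, quantile normalization, omitting the filter, a filter at the 75th percentile, the brightest probe set, a lowess trend removed (fraction 0.3, 3 iterations), 1.5-fold, and leaving out the member with the largest difference. The 1.1-fold threshold was added after seeing the data. The number of arrays limits the precision. Python 3.11.15, numpy 2.4.6, pandas 2.3.3 and statsmodels 0.14.6 were used.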

Additional observations from a re-analysis of the deposited data

How the results depend on the processing

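The medians over the members kept their sign under each setting in 5 comparisons, with ranges of 0.12 to 0.20 (wild-type minus spermless), 0.032 to 0.10 (wild-type minus virgin), 0.011 to 0.089 (wild-type minus DTA-E), -0.12 to -0.045 (spermless minus virgin) and -0.11 to -0.025 (spermless minus DTA-E). DTA-E minus virgin ranged over 0, from -0.021 to 0.0056. Of the 354 values of single members under an alternative, 7 moved by more than the SD between probe sets, all of them osk, orb or exu. The direction of 9 of 10 members held under every setting in wild-type minus spermless (not exu) and in spermless minus virgin (not osk), and that of 6 of 10 in spermless minus DTA-E and wild-type minus DTA-E. Counts past 1.2-fold, which were 1 in wild-type minus virgin and 0 elsewhere, differed by setting. In the columns as deposited, and also without the filter, which averages in the dim orb probe set, the count was 0 in wild-type minus virgin and 1, pum, in spermless minus virgin and in spermless minus DTA-E. After quantile normalization it was 2 in wild-type minus virgin, 2 in wild-type minus DTA-E and 2 in wild-type minus spermless. It was 2 in wild-type minus virgin under the stricter filter, which dropped grk, and with the trend on level removed, which also gave 1 in wild-type minus DTA-E. At 1.5-fold it was 0 in wild-type minus virgin. At 1.1-fold it was 2 in wild-type minus virgin, 3 in spermless minus virgin, 1 in DTA-E minus virgin, 2 in spermless minus DTA-E, 2 in wild-type minus DTA-E and 6 in wild-type minus spermless. No paired analysis was possible because each group has 1 column. Spread between pools of flies is unknown, so none of these differences can be set against it.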
